A study of Mus musculus with 33 samples.

Results

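The genes of the trophoblast lineage were followed through every deposited list of a ChIP-seq series on Uhrf1 in mouse embryonic stem cells. These 10 genes, of 22367 protein-coding genes in the annotation, were Cdx2, Elf5, Tead4, Gata3, Tfap2c, Ascl2, Krt8, Krt18, Gcm1 and Fgfr2. They were chosen by name for their known place in this lineage, with earlier results of these data known. ChIP-seq recovers DNA that carries a histone mark or a bound protein with an antibody and sequences it. The cells were E14 mESC, an established line of mouse embryonic stem cells, either wild type (WT) or Uhrf1 knockout (KO), and embryoid bodies (EBs) made from each genotype and taken at weeks 1, 2 and 3. EBs are aggregates in which stem cells differentiate into mixed cell types. The stem cells of both genotypes were grown undifferentiated in serum with leukemia inhibitory factor. WT and KO cells came from another laboratory, and a single KO line stood for the genotype, so the genotype and the line cannot be told apart. H3K4me3 and H3K27me3 were measured at all 4 stages in both genotypes, H3K9me3, Oct4, Sox2 and Nanog in mESC of both genotypes, and Uhrf1 in WT mESC, which gave 25 lists. Each list came from 1 library, so the genotypes could not be compared over replicates, and no test was made.

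Trophoblast is the first lineage to part from the cells that form the embryo, and it goes on to build the placenta. Hippo signalling is low in outer cells, which leaves the coactivator Yap1 free to work with Tead4, Cdx2 and Gata3 are then turned on, and Elf5, Eomes and Tfap2c hold the trophoblast stem cell state under Fgf signals received by Fgfr2. Ascl2 and Gcm1 act later, in the spongiotrophoblast and in the labyrinth, and Krt8 and Krt18 form the keratin filaments of trophectoderm. Embryonic stem cells do not normally make trophoblast. The Elf5 promoter is a textbook case of a gene kept silent in them by DNA methylation, which Uhrf1 maintains by bringing Dnmt1 to newly copied DNA. H3K4me3 marks promoters that are active or poised, H3K27me3 is the Polycomb mark of repression, a promoter with both is called bivalent, and H3K9me3 marks heterochromatin.

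All positions are in the mm9 (NCBIM37) build. Cdx2 lies at chr5:148112381-148118846, Elf5 at chr2:103251845-103291146, Tead4 at chr6:128174306-128250841, Gata3 at chr2:9778705-9811661 and Tfap2c at chr2:172375093-172384122, under the older symbol Tcfap2c. Ascl2 lies at chr7:150152727-150155169, Gcm1 at chr9:77899765-77913431, Krt8 at chr15:101827142-101834773 and Krt18 at chr15:101858647-101862457. The starts of Krt8 and Krt18 lie 23.9 kb apart, so a single long domain can reach both. For Fgfr2 the body chr7:137306026-137410322 was used, because 1 annotated transcript starts 2.90 Mb upstream of all its others and was left out. Cdx2, Tead4, Gata3, Ascl2, Krt8 and Fgfr2 are on the minus strand and the rest on the plus strand.

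The promoters of 3 genes are shown because these genes had H3K4me3 in no list (Elf5) or in lists of 1 genotype (Gcm1 and Ascl2). Each line gives the 250 bases before the gene start, 5′ to 3′ on the strand of the gene, with each CG dinucleotide, the site of DNA methylation, in capitals.
Elf5 (chr2:103251595-103251844, + strand): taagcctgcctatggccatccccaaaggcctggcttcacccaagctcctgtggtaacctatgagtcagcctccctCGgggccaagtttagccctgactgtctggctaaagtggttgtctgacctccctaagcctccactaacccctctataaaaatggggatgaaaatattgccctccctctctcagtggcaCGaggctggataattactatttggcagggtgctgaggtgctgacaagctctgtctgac
Gcm1 (chr9:77899515-77899764, + strand): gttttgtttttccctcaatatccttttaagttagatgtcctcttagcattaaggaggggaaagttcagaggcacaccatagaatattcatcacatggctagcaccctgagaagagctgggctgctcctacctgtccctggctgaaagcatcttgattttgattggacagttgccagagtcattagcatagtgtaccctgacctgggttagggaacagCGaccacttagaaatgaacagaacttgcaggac
Ascl2 (chr7:150155170-150155419, - strand): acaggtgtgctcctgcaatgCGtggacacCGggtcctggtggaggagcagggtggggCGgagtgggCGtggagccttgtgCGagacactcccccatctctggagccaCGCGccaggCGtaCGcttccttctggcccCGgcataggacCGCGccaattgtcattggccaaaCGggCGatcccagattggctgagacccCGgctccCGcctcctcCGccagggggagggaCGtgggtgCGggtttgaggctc
Elf5 has 2 CG in this stretch and Gcm1 has 1, against a median of 8 over all protein-coding genes, and 24.6% and 16.6% of genes have as many or fewer. Fgfr2 also has 2 and Krt8 has 3. Ascl2 has 19, with 79.0% of genes at or under that number. Cdx2 and Tead4 have 11 each, Krt18 has 12 and Gata3 has 6. None of these 9 stretches of 250 bases touches an exon of a protein-coding gene.

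The sequences under 4 WT Oct4 summits are shown because they differ in what the KO lists hold there, as described with the factors further on. Each line is 101 bases centred on the WT summit, on the strand of the gene. Capitals mark the octamer core ATGCAAA, a binding word of Oct4, on either strand. The shorter Sox element CATTGT was searched in the same way, can share the letters CAT with the octamer core, and was found in none of the 11 windows near the 10 genes.
Fgfr2, intron (chr7:137408216-137408316, - strand): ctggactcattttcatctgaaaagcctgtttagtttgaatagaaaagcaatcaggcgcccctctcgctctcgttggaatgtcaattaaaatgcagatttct
Cdx2, intron (chr5:148115979-148116079, - strand): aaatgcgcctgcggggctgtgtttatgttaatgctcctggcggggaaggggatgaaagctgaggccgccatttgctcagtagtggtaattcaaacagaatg
Cdx2, upstream (chr5:148118930-148119030, - strand): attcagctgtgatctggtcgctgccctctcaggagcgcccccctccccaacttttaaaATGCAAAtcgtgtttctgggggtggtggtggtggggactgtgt
Ascl2, intron (chr7:150153433-150153533, - strand): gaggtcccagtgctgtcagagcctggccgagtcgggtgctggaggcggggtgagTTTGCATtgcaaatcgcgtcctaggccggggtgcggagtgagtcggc
The octamer core occurs in the upstream Cdx2 window and in the Ascl2 window, and in none of the other 9. Over the 12697 WT Oct4 summits on assembled chromosomes, 13.0% of such windows hold the octamer core and 7.88% hold the Sox element. The absence of these exact letters from a window describes that window and nothing about the factor.

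The lists differed in size, which touches every count that follows. The 8 H3K4me3 lists had between 11509 and 39898 domains each. For H3K27me3 the KO mESC list had 722 domains, the fewest of 8, against 8161 in WT mESC, and the KO Oct4 list held 576 summits against 12898 in WT. Conversely, the KO Sox2 list held 20755 summits against 5190 in WT and the KO Nanog list 10632 against 2390. The KO H3K9me3 list had 3118 domains against 11285 but covered 1085.9 Mb against 987.6 Mb. Domains of the KO mESC H3K27me3 list had a median of 0.914 reads per bin, against 4.93 in WT mESC, on bins of different size. A high percentile in that KO list is thus a rank among low counts. Read totals were not used here, so the part of depth in these differences was not tested. Of 7 stem cell markers, 6 had H3K4me3 in WT mESC and 6 in KO mESC, the exception in both being Esrrb, and the numbers in WT and KO were 4 and 1 at week 1 and 6 and 6 at both weeks 2 and 3. The Uhrf1 gene itself had H3K4me3 and no H3K27me3 in all 8 pairs of libraries, and since lists of chromatin marks do not measure its transcript or protein, they do not check the knockout.

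A gene was called marked by H3K4me3 when a domain reached within 2 kb of its start, and by H3K27me3 or H3K9me3 within 5 kb. A gene with H3K4me3 alone was classed active, with H3K27me3 alone repressive, with both bivalent, and otherwise no mark. In WT mESC 5 of the 10 genes were bivalent (18.3% of all protein-coding genes), namely Cdx2, Gata3, Tfap2c, Krt18 and Fgfr2. Tead4 and Krt8 were active, Elf5 and Ascl2 repressive, and Gcm1 carried no mark. In KO mESC 1 gene was bivalent (4.29%), Cdx2. Tead4, Gata3, Tfap2c, Krt18, Gcm1 and Fgfr2 were active, Ascl2 was repressive, and Elf5 and Krt8 carried no mark. The class thus differed between the genotypes at 7 genes in mESC, against 36.4% of all genes. The mESC classes were also set with lists of equal number. This removes WT domains by construction, so the part of list length was not tested. When the longer list of each WT and KO pair was limited to the domains of highest score, as many as the shorter held (a choice made with the data in view), 0 genes were bivalent in WT mESC (2.98% of all genes), and the class differed at 2, Cdx2 and Gcm1 (20.8%). With domains above the median score alone, 3 were bivalent in WT mESC and the class differed at 4.

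**Figure D1:**
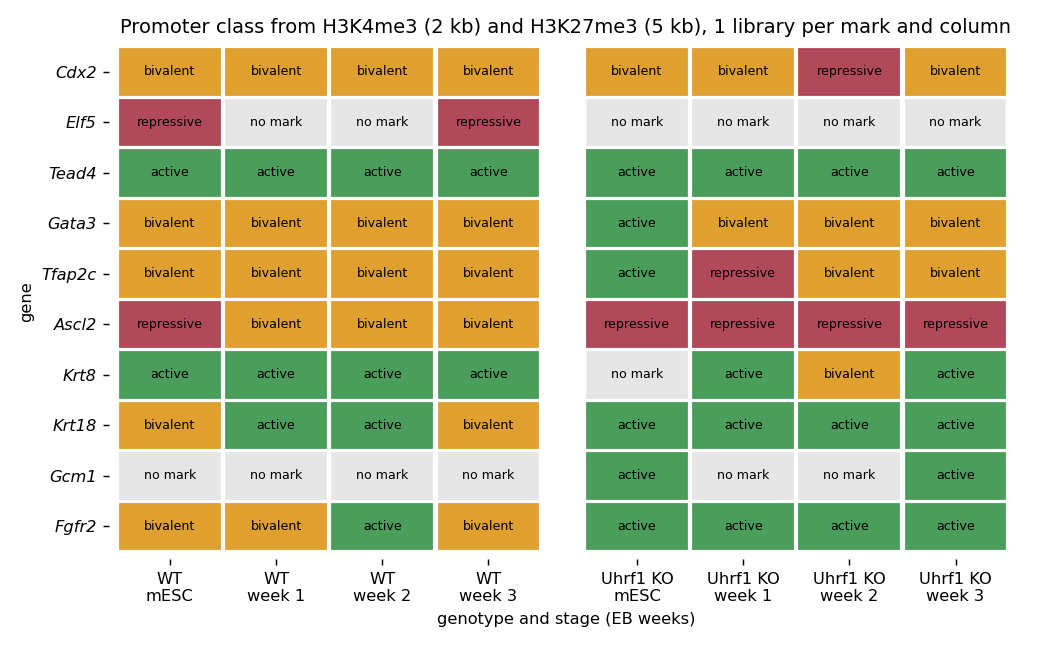
Promoter class of the 10 genes (rows) in WT and Uhrf1 KO at 4 stages (columns), with colour and word giving the class. Tead4 is active in all 8 columns, Ascl2 is bivalent in the 3 WT EB columns and repressive in the 4 KO columns, and Gcm1 is active in 2 KO columns.

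In WT EBs 5, 4 and 6 of the genes were bivalent at weeks 1, 2 and 3, against 15.3%, 13.7% and 19.6% of all genes. In KO EBs 2, 3 and 3 were bivalent, against 10.7%, 13.4% and 11.3%. The class differed between the genotypes at 3 genes at week 1 (18.1% of all genes), at 3 at week 2 (29.0%) and at 5 at week 3 (23.0%). Different genes made up these counts: Tfap2c, Ascl2 and Fgfr2 at week 1, Cdx2, Ascl2 and Krt8 at week 2, and Elf5, Ascl2, Krt18, Gcm1 and Fgfr2 at week 3. Ascl2 was the one gene in all 3 of these EB counts, and Tead4 was in none of the 4 stages.

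H3K4me3 was present at 7, 8, 8 and 8 of the genes in WT mESC and EB weeks 1, 2 and 3, against 63.2%, 62.1%, 65.7% and 66.2% of all genes. The KO lists had 7, 6, 6 and 8, against 57.0%, 57.0%, 64.5% and 65.8%. Tead4, Gata3, Krt18 and Fgfr2 had it in all 8 lists (4 of 10), as did 50.3% of all genes. H3K27me3 was present at 7, 5, 4 and 7 genes in WT (34.9%, 20.5%, 29.8% and 33.2% of all genes) and at 2, 4, 5 and 4 in KO (7.57%, 21.1%, 24.1% and 19.5%). Of the genes with H3K27me3 in WT, 5 of 7 had none in KO in mESC, 1 of 5 at week 1, 0 of 4 at week 2 and 3 of 7 at week 3, and over all genes with it in WT the shares were 84.5%, 27.7%, 51.2% and 50.1%. The count of 2 in KO mESC came from the H3K27me3 list with the fewest domains. When the WT list was limited to its 722 domains of highest score (a choice made with the data in view), the list marked 1 of the 10 genes, Ascl2, against 8.63% of all genes. Such a limit lowers the WT count by construction, so the part of list length was not tested.

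**Figure D2:**
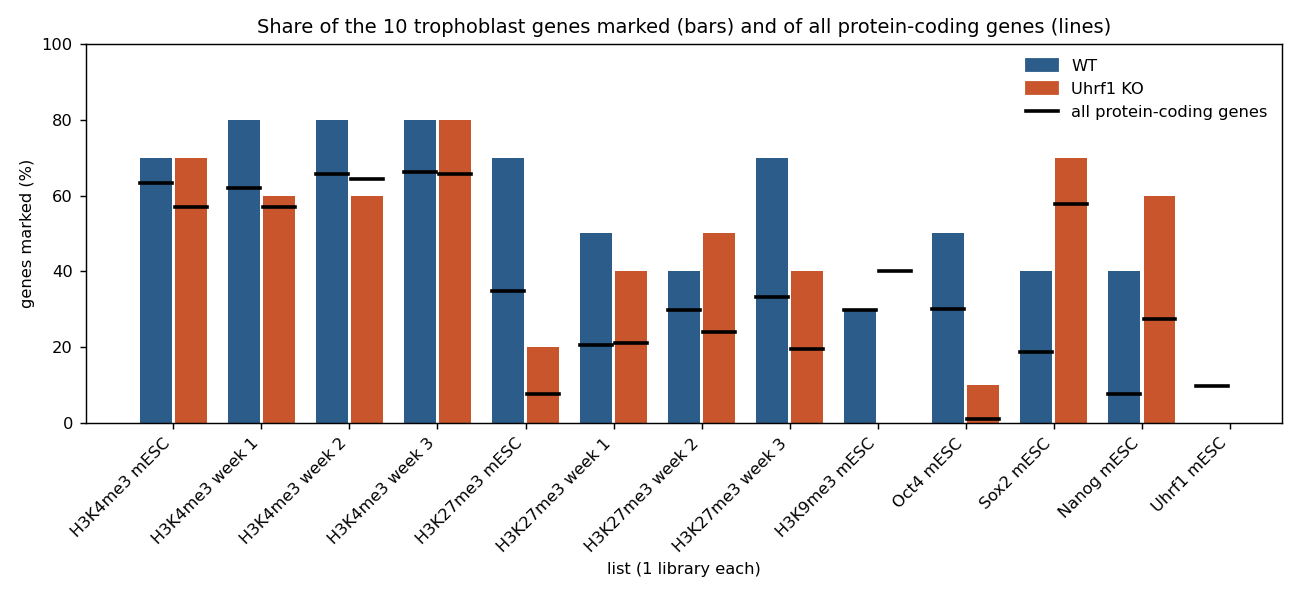
Share of the 10 trophoblast genes marked in each list (bars, percent, WT and Uhrf1 KO, 1 library each) and share of all 22367 protein-coding genes (black lines). The H3K27me3 bars stand at 70% in WT and 20% in KO mESC while the lines stand at 34.9% and 7.57%, and the Oct4 bars at 50% and 10% while the lines stand at 30.1% and 1.10%.

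Tead4, the DNA-binding partner of Yap1 at the head of this pathway, varied least when read at its most upstream annotated start. A single H3K4me3 domain covered its start in all 8 lists, 24.7 kb long in WT mESC and 28.6 kb in KO mESC, and 5.25 to 10.8 kb long in the EB lists. The nearest H3K27me3 domain in any list was 78.2 kb from the start. The state of Tead4 in all 16 H3K4me3 and H3K27me3 lists was shared by 6700 of the other genes. Domain lengths in mESC and EB lists were read on different bins and are not compared.

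Cdx2, the homeobox factor that fixes trophectoderm fate, was bivalent in 7 of the 8 pairs of lists. Its H3K27me3 domain covered the start in all 8 lists and was 189 kb long in WT mESC and 306 kb in KO mESC. In KO mESC it was 1 of the 2 genes left with a domain, and its mean read count ranked at the 81.3 percentile of that list, against the 97.4 percentile in WT. The domain held 2.23 reads per bin in KO mESC, where the list median was 0.914, and 11.7 in WT, where the median was 4.93. In EBs the domain over the start was 29.8, 140.4 and 253.8 kb long in WT at weeks 1, 2 and 3 and 91.8, 266.4 and 232.2 kb in KO. At week 1 WT had a second domain from 18.1 to 46.1 kb downstream. The KO week 1 domain ran from 46.4 kb upstream to 45.4 kb downstream. The H3K4me3 domain at Cdx2 also differed between the genotypes in its position. In WT it covered the start at all 4 stages and in EBs reached from 0.354 to 1.95 kb upstream of it to 8.45 kb downstream. In KO mESC it also covered the start, from 11.0 kb upstream to 4.64 kb downstream. In KO EBs no domain covered the start: at week 1 a 1.05 kb domain began 0.946 kb downstream, at week 2 the nearest domain began 6.20 kb downstream, and at week 3 a 7.20 kb domain began 1.25 kb downstream. The calls at KO weeks 1 and 3 rest on the 2 kb distance and are absent when the start itself must lie inside a domain. A Cdx2 start outside any H3K4me3 domain was thus seen in all 3 KO EB lists and in none of the 4 WT lists, although the class differed at week 2 alone. At WT week 2 the starts of Tfap2c and Ascl2 also lay outside any domain. The share of all genes with the Cdx2 pattern was not counted.

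Gata3, which acts beside Cdx2 in trophectoderm and also in other lineages such as T cells, had H3K4me3 over its start in all 8 lists. In WT mESC the domain was 29.9 kb long and in KO mESC 20.8 kb, and in EBs it was 19.2 to 23.2 kb long in all lists but KO week 1. There the domain over the start was 1.75 kb long, and a second domain ran from 6.06 to 18.7 kb downstream of the start. A second annotated start of Gata3 lies 11.4 kb inside the gene, within that second domain, and it was marked by H3K4me3 in all 8 lists. H3K27me3 covered the start in all 4 WT lists and the 3 KO EB lists, with lengths of 22.8 to 72 kb, and its mean count ranked between the 80.2 and 98.3 percentiles of its list. In KO mESC the nearest H3K27me3 domain lay 202.3 kb away. Gata3 was thus bivalent everywhere but in KO mESC, a pattern that 338 other genes (1.51%) share in all 16 lists.

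Tfap2c, an AP-2 factor of trophoblast stem cells and of germ cells, had the same H3K27me3 pattern as Gata3. The mark covered its start in all 4 WT lists and the 3 KO EB lists, and in KO mESC the nearest domain was 2042.6 kb away. H3K4me3 was 18.2 kb long in WT mESC and 11.7 kb in KO mESC. In EBs it spanned 5.60 kb in WT at week 1, against no domain within 64.0 kb in KO at week 1. At week 2 the KO domain of 7.35 kb covered the start while the WT domain of 2.40 kb ended 0.293 kb upstream of it, and at week 3 both covered it, with 4.80 kb in WT and 9.20 kb in KO. The gene was called marked by H3K4me3 in both genotypes at weeks 2 and 3.

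Elf5, an ETS factor whose methylated promoter bars stem cells from the trophoblast lineage, had no H3K4me3 at its start in any of the 8 lists, while the other 9 genes, and 73.0% of all genes, had it in 1 list or more. The nearest domain lay 65.7 kb away in WT mESC and 64.4 kb away in KO mESC, and 11.8 to 68.9 kb away in EBs. A second annotated start lies 12.4 kb inside the gene, and there the WT week 2 list alone had a domain, 3.20 kb long and at the 13.6 percentile of mean count. H3K27me3 covered the Elf5 start in WT mESC, in a domain of 115.2 kb whose mean count ranked at the 1.35 percentile of its list, and in WT week 3, in a domain of 37.8 kb at the 73.2 percentile. In the KO lists the nearest H3K27me3 domain at any stage was 30.8 kb away. Elf5 thus had no H3K4me3 at its first start in the KO lists either, and in them it had neither mark.

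**Figure D3:**
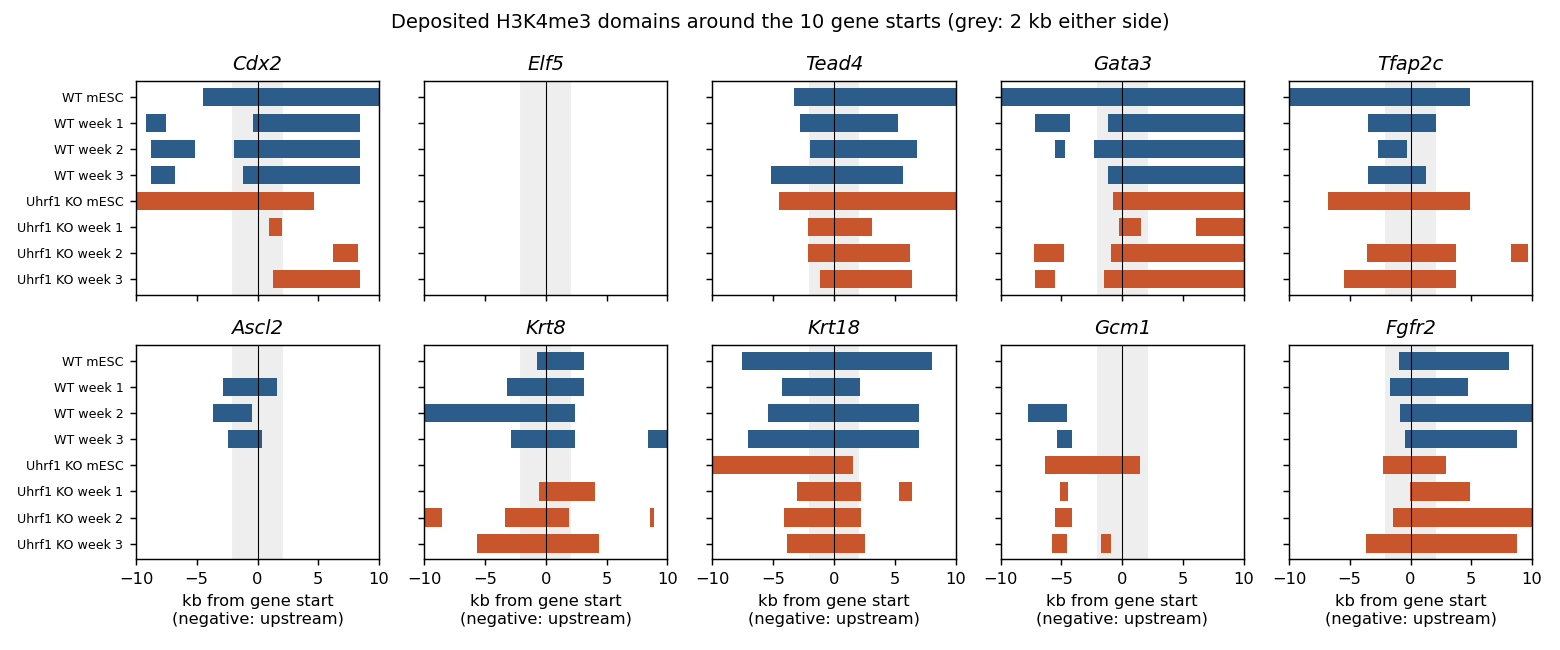
H3K4me3 domains (bars) within 10 kb of the start of each gene, in 8 lists (rows, WT above and Uhrf1 KO below). The horizontal axis is kb from the gene start and grey marks the 2 kb either side. Bars cover the start of Cdx2 in 4 WT rows and 1 KO row, appear at Ascl2 in 3 WT EB rows, and reach the start of Gcm1 in the KO mESC row.

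Ascl2, a basic helix-loop-helix factor of the ectoplacental cone and spongiotrophoblast that is imprinted in the placenta, stood apart among the 10 genes. H3K4me3 was absent in WT mESC, where the nearest domain was 37.7 kb away. It was present in all 3 WT EB lists, from 2.83 kb upstream to 1.57 kb downstream at week 1, from 3.63 to 0.432 kb upstream at week 2, and from 2.43 kb upstream to 0.368 kb downstream at week 3. All 4 KO lists lacked it, with the nearest domains 80.6, 35.1, 35.8 and 36.8 kb away. This combination was found at 16 genes of the whole annotation (0.0715%). The WT domains were weak in their own lists, with mean counts at the 3.18, 2.56 and 5.07 percentiles and scores under the median, so none of the 3 remained when low-scoring domains were left out. H3K27me3 covered the Ascl2 start in all 8 lists, as it did at Cdx2 and at 2.41% of all genes. The domain was 432 kb long in WT mESC and 994.5 kb in KO mESC, where its mean count ranked at the 86.0 percentile. That mean count was 2.61 reads per bin in KO mESC, against 10.5 in WT mESC. In EBs the domain was 36.8, 46.8 and 363.6 kb long in WT and 151.2, 369 and 325.8 kb in KO.

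Gcm1, the factor that drives branching and syncytiotrophoblast formation in the labyrinth, showed the reverse for H3K4me3. None of the 4 WT lists had a domain within 2 kb of its start, while KO mESC and KO week 3 did, a pattern of KO without WT that 1.66% of all genes showed. In KO mESC the domain ran from 6.36 kb upstream to 1.44 kb downstream of the start, with a mean count at the 23.0 percentile of its list, against a nearest WT mESC domain 52.1 kb away. At KO week 3 the call rests on a domain of 0.800 kb that ended 0.965 kb upstream, with a score at the 6.42 percentile. With domains above the median score alone, neither KO call remained, and within 5 kb of the start Gcm1 was marked in all 4 KO lists and in WT weeks 2 and 3, so the KO calls without WT rest on the 2 kb distance and on low-scoring domains. A second stretch 4 to 8 kb upstream carried H3K4me3 in 5 EB lists, from 5.16 to 4.46 kb upstream in KO week 1, from 7.76 to 4.57 kb in WT week 2, from 5.51 to 4.12 kb in KO week 2, from 5.36 to 4.17 kb in WT week 3 and from 5.76 to 4.57 kb in KO week 3. The KO mESC domain covered the part of this stretch nearer to the start. In WT mESC, which had no H3K4me3 there, an H3K9me3 domain of 1.80 kb overlapped this stretch, from 4.76 to 2.96 kb upstream, whose mean count of 32 reads per bin ranked at the 98.2 percentile. Its score, which grows with length, ranked at the 0.213 percentile. The nearest H3K27me3 domain to Gcm1 in any list was 141.6 kb away.

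Fgfr2, the receptor through which Fgf4 keeps trophoblast stem cells dividing, had H3K4me3 over its start in all 8 lists. The domain was 9.10 kb long in WT mESC and 5.20 kb in KO mESC, and 4.90 to 13.7 kb in the EB lists. The mean count of this domain ranked at the 24.0 percentile in WT mESC and the 9.31 percentile in KO mESC. It ranked highest at WT week 2, at the 92.2 percentile. With domains above the median score alone, neither mESC call remained. H3K27me3 was present in WT mESC, week 1 and week 3 and in no KO list. Its mean count ranked at the 66.9, 2.73 and 1.20 percentiles of those WT lists, so the 2 EB domains were among the weakest of theirs. All 3 calls are absent at the gene record's own start, that of the transcript left out. Elf5, Krt18 and Fgfr2 were the 3 genes with H3K27me3 in 1 or more WT lists and no KO list, as were 20.6% of all genes.

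Krt8 and Krt18, which encode the keratin pair of simple epithelia and of trophectoderm, differed from each other although they are neighbours. H3K4me3 covered the Krt18 start in all 8 lists. At Krt8 it was present in 7, with a domain of 3.90 kb in WT mESC and none within 12.4 kb in KO mESC. The WT mESC domain at Krt8 had a score at the 20.3 percentile of its list. H3K27me3 covered Krt18 in WT mESC and at WT week 3, in domains of 48.6 and 14.4 kb, and neither reached within 5 kb of Krt8. At KO week 2 a 678.6 kb H3K27me3 domain covered Krt8 and ended 16.4 kb from the Krt18 start. The border between marked and unmarked chromatin thus ran between both genes in these 3 lists.

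**Figure D4:**
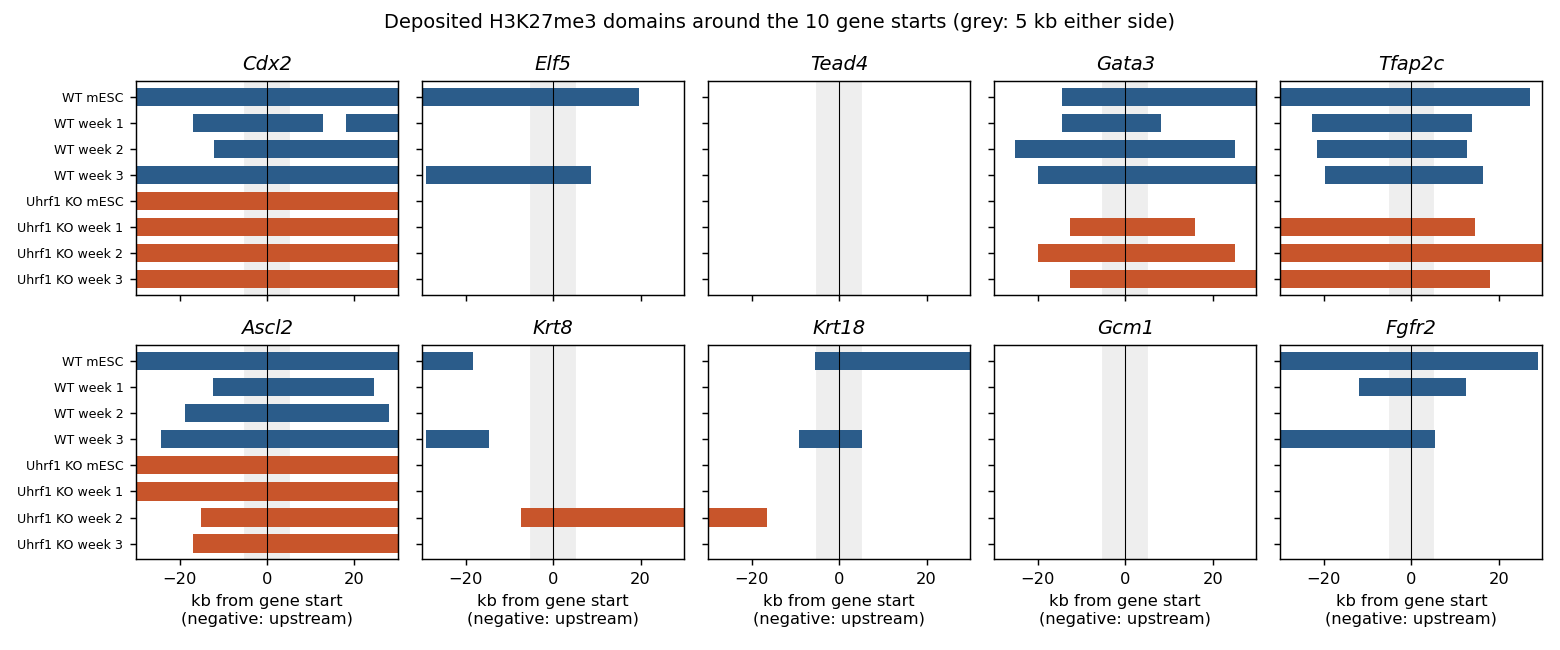
H3K27me3 domains (bars) within 30 kb of the start of each gene, in 8 lists (rows, WT above and Uhrf1 KO below). The horizontal axis is kb from the gene start and grey marks the 5 kb either side. Cdx2 and Ascl2 are covered in all 8 rows, Gata3 and Tfap2c in all rows but KO mESC, and Tead4 and Gcm1 in none.

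H3K9me3 in WT mESC reached Gata3, Tfap2c and Gcm1 (3 of 10, against 29.7% of all genes), and in KO mESC none of the 10 genes (40.1%). At Gata3 the domain was 21.6 kb long and covered the start from 10.9 kb upstream to 10.7 kb downstream. At Tfap2c it was 34.2 kb long and ended 0.107 kb past the start. Neither stood out in its list, with mean counts at the 51.4 and 27.2 percentiles. At Elf5 an H3K9me3 domain of 12.6 kb ended 5.64 kb upstream of the start in WT mESC, just outside the 5 kb distance, and the nearest KO domain was 89.8 kb away. No Uhrf1 window of WT mESC, each 10 kb long, overlapped any of the 10 gene bodies, against 9.82% of all genes. The nearest window was 46.0 kb from Fgfr2, 78.9 kb from Elf5 and 166.6 kb from Gcm1, and the farthest was 965.1 kb from Tfap2c.

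Oct4, Sox2 and Nanog hold stem cells in the pluripotent state, and Oct4 is known to repress trophoblast genes such as Cdx2. A summit, the base with the most reads in a bound region, was assigned to a gene when it lay within 20 kb of the gene body. In WT mESC Oct4 had summits at 5 of the genes (30.1% of all genes), Cdx2, Tead4, Tfap2c, Ascl2 and Fgfr2. Sox2 and Nanog had summits at 4 each (18.8% and 7.51%), the same genes without Ascl2. All 3 factors were thus found at Cdx2, Tead4, Tfap2c and Fgfr2, a combination present at 6.04% of all genes. A longer gene body gives a wider search, and Fgfr2 and Tead4 are 104.3 and 76.5 kb long. The shares of all genes were not matched for gene length. None of the 3 factors had a WT summit at Elf5, Gata3, Krt8, Krt18 or Gcm1. In KO mESC Oct4 had a summit at Fgfr2 and at none of the other 9 genes (1.10% of all genes). Sox2 had summits at 7 (57.7%) and Nanog at 6 (27.4%), among them the 4 genes that had them in WT. With WT Oct4 limited to its 576 tallest summits, as many as the KO list holds, it too was found at 1 of the 10 genes (2.26% of all genes). With the KO lists limited to the WT number, Sox2 was found at 4 genes and Nanog at 3 (17.8% and 8.52%).

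Fgfr2 held the tallest Oct4 summit of the 10 genes, in an intron 2.06 kb inside the gene, at the first Fgfr2 sequence printed earlier. WT Oct4 reached 122 reads there, the 99.0 percentile of its list, with Sox2 at 72 reads 7 bp away and Nanog at 44 reads 1 bp away. In KO mESC the site had 27 Oct4 reads 6 bp from the WT summit, the 68.9 percentile of the KO list, with 95 reads of Sox2 and 57 of Nanog. Of the 11 WT Oct4 summits near the 10 genes this was the one with a KO Oct4 summit within 100 bp, as for 1.89% of all WT Oct4 summits. A second site 14.5 kb inside Fgfr2 had 73 WT Oct4 reads and 35 of Sox2, and in KO 70 reads of Sox2 and 23 of Nanog but no Oct4 summit.

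At Cdx2 both Oct4 sites lacked an Oct4 summit in KO mESC, where the nearest lay 304079 bp away, but their other factors differed. The intron site, 2.82 kb inside the gene, had 91 Oct4 reads in WT (95.2 percentile) and a Nanog summit of 18 reads 42 bp away. The nearest WT Sox2 summit, of 26 reads, was 622 bp from the WT Oct4 summit. In KO the intron site had Sox2 at 36 reads 10 bp from the WT Oct4 summit and Nanog at 18 reads 19 bp from it. The upstream site, 0.134 kb before the start and holding the octamer core, had 68 Oct4 reads in WT and the nearest KO summit of the 3 factors, of Sox2, was 2941 bp away. At Ascl2 the intron site 1.69 kb inside the gene, which also holds the octamer core, had 49 Oct4 reads in WT with neither Sox2 nor Nanog, and in KO a Sox2 summit of 22 reads 12 bp away. The 2 octamer-bearing windows thus had, in KO, no summit and a Sox2 summit.

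Tead4 had 4 intronic Oct4 summits in WT, of 35, 41, 38 and 66 reads at 4.15, 19.8, 39.1 and 46.0 kb from the start. The first had Sox2 and Nanog summits beside it in both genotypes, and the last had Nanog in both. The one at 39.1 kb had neither in WT and, in KO, Nanog at 18 reads 88 bp away and Sox2 at 25 reads 126 bp away. From the one at 19.8 kb the nearest KO summit of the 3 factors, of Nanog, was 15717 bp away. Tfap2c had Oct4 sites of 60 reads 4.66 kb upstream and of 66 reads 27.8 kb downstream of its start, with Sox2 summits 85 and 185 bp from them in WT and Nanog summits 37 and 27 bp from them. In KO the nearest Sox2 summits were 153 and 122 bp from the WT Oct4 summits, with 45 and 85 reads against 33 and 46 in WT. The nearest KO Nanog summits had 31 and 27 reads against 29 and 18 in WT. The reads were not scaled to depth in a way the sources state, so these numbers give the height in each library and not a change in binding.

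**Figure D5:**
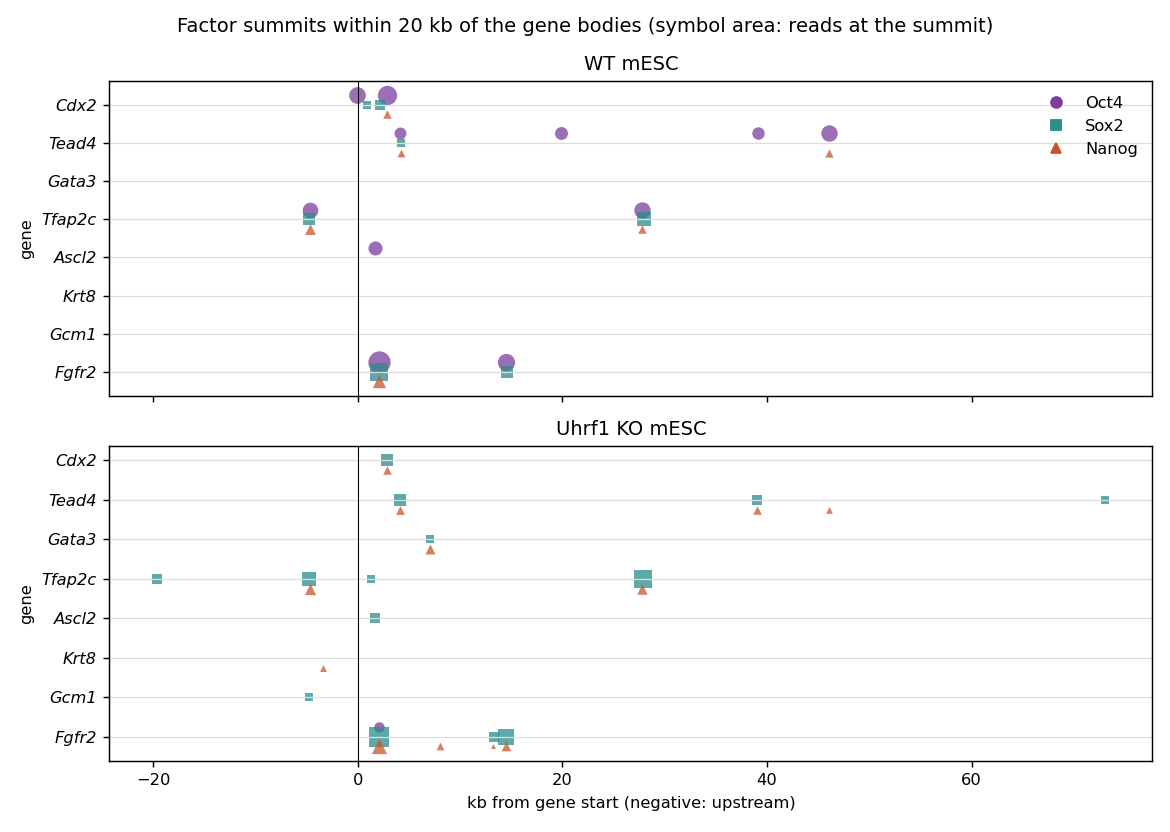
Positions of Oct4, Sox2 and Nanog summits within 20 kb of the gene bodies, in WT mESC (above) and Uhrf1 KO mESC (below), in kb from the gene start, with symbol area in proportion to the reads at the summit. WT has 11 Oct4 summits at 5 genes, and KO has 1, in Fgfr2. Elf5 and Krt18 have no summit and are not drawn.

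Over the 11 WT Oct4 summits near the 10 genes, 5 had a KO Sox2 summit within 100 bp and 8 a KO Nanog summit, against 46.0% and 32.4% of all WT Oct4 summits. Of the WT summits of Sox2 near these genes 5 of 7 had a KO Sox2 summit within 100 bp (64.6% of the whole list), and of those of Nanog 6 of 6 (81.5%). Any of the 3 factors was found at 5 of the 10 genes in WT and at 8 in KO (34.5% and 60.5% of all genes). Sox2 was found in KO alone at 3 genes (39.7% of all genes) and Nanog at 2 (20.1%). The 3 genes with a KO summit and none of any factor in WT were Gata3, Krt8 and Gcm1. Gata3 had Sox2 at 19 reads and Nanog at 25 reads within 3 bp of each other, in an intron 7.01 kb inside the gene. Krt8 had Nanog at 12 reads 3.42 kb upstream. Gcm1 had Sox2 at 15 reads 4.75 kb upstream, inside the stretch that held H3K4me3 in KO mESC. The heights at Krt8 and Gcm1 were at the 50.4 and 37.4 percentiles of their lists.

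To place each gene among all others, the states in the 8 H3K4me3 and 8 H3K27me3 lists were compared with those of every protein-coding gene, which shares its libraries with the gene it is compared to. No 2 of the 10 genes agreed in all 16 lists. Apart from Tead4 and Gata3, the number of genes with all 16 states equal was 157 for Krt18, 79 for Elf5, 51 for Tfap2c, 41 for Fgfr2 and 6 for Krt8. It was 4 for Cdx2, which, named after their values were seen, were Gm6320, Gprin1, Nat8l and Sox30. Gcm1 had 3, which were 1700029P11Rik, Foxr1 and Rpl26-ps4, and Ascl2 had 1, Pdx1, a homeobox gene of the pancreas. Likeness here means equal calls and says nothing of function.

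Other genes of the same biology were taken from 3 lists. Of 10 genes of the Hippo pathway, 8 were active in WT mESC and 9 in KO mESC, against 44.8% and 52.7% of all genes. The class differed in mESC at 1 of them (36.4% of all genes), Tead1, a close relative of Tead4, which was bivalent in WT and active in KO. Of the 10, 7 were active in all 8 pairs of lists, like Tead4. Of 10 regulators of trophoblast stem cells, the class differed in mESC at 5, and 4 were active in WT and 8 in KO. Sox2, Tfap2a, Sox21 and Bmp4 were bivalent in WT mESC and active in KO, and Esrrb was repressive in WT and without mark in KO. The Esrrb class holds for its most upstream annotated start, which had H3K4me3 in 0 WT and 0 KO lists. No other Esrrb start was examined. Bmp4, a signal that can push stem cells toward trophoblast, was bivalent in all 4 WT pairs and active in all 4 KO pairs. Eomes, a T-box factor that works with Cdx2 and Elf5 and is named here after its values were seen, was bivalent in all 8 and so had H3K27me3 in KO mESC, as Cdx2 did.

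Of 18 genes of differentiated trophoblast, 17 were matched to the annotation, 3 of them active in WT and 4 in KO mESC, and the class differed in mESC at 7, a share near the 36.4% of all genes. The placental hormone genes Prl3d1, Prl3b1 and Prl2c2 and the spongiotrophoblast gene Tpbpa were repressive in WT mESC and without mark in KO, as was Krt7. Peg10 was bivalent in WT and active in KO, and Dlx3, a partner of Gcm1 in the labyrinth, was bivalent in WT and repressive in KO. Cdkn1c, named here after its values were seen, had a pattern close to that of Ascl2. It was repressive in WT mESC and WT week 1, bivalent at WT weeks 2 and 3, and repressive in all KO pairs. Prl2c2 was the one gene of the 3 lists on a Uhrf1 window. H3K9me3 was found at 7 of these 17 in WT mESC (Hand1, Tpbpa, Prl3d1, Prl2c2, Ctsq, Pparg and Peg10) and at 8 in KO (29.7% and 40.1% of all genes), of which Pparg was no longer one and Dlx3 and Krt19 were new. In the Hippo list Nf2 had it in WT and KO and Tead1 and Lats2 in KO alone, and among the stem cell regulators Sox21 had it in both and Sox2, Klf5 and Spry4 in KO alone. Oct4 had WT summits at 5 of the Hippo genes, 7 of the stem cell regulators and 4 of the 17 differentiated genes, against 30.1% of all genes, and KO summits at 2, 2 and 0, against 1.10%.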

How the data were processed

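ChIP-seq was made in WT and Uhrf1 KO E14 mESC and EBs, with 1 library per group. The authors mapped reads to mm9 with Bowtie2 2.1.0 and called each library by itself, histone domains with RSEG against input and factor summits with MACS. A deposited histone domain carries 2 columns of values: its signal, which is the reads per bin averaged over the domain, and a score, larger for longer domains. Bins of 350 to 1800 bp differed between lists and scaling to depth is not stated, so both columns were used mainly as percentiles within a list. The deposited signal of a summit is its reads, in whole numbers, and the 10 kb Uhrf1 windows have no score. Read totals and the 8 input samples were not analysed here, so depth per library is not given.

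Genes came from the GENCODE annotation of NCBIM37, and the domains of 0 of 523 list-chromosome pairs ran over a chromosome's end. A single transcript starting over 500 kb upstream of all others of its gene was left out (7 genes, Fgfr2 among them), a rule set after reading the annotation. States were set by overlap of at least 1 bp with Python 3.11.15 and NumPy 2.4.6, tested on simulated domains, and drawn with Matplotlib 3.10.9. Counts over the members stand beside the share of all protein-coding genes, and no test was made. Sequences were read from NCBIM37 (the Tfap2c promoter is not reported here), and Oct4 windows with motif shares cover summits on assembled chromosomes.

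The members and gene lists were chosen with earlier results of these data known. All members are named, and of the other lists those genes whose class differed in mESC or that had a Uhrf1 window or an H3K9me3 domain. Eomes and Cdkn1c were named after their values were seen. Tfap2c, Tfap2a and Syna were matched by older symbols, and Synb and the marker Sox1 were not matched. Markers of differentiated cells, of which 9 were matched, had H3K4me3 at 6 in WT and 3 in KO mESC and H3K27me3 at 9 and 4, with 0 and 3 classed active.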

Additional observations from a re-analysis of the deposited data

Results flagged for a closer look

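The number of the 10 genes with H3K27me3 in KO minus that in WT had opposite signs at different stages. It came to -5 in mESC and to -1, 1 and -3 in EBs of weeks 1, 2 and 3. The difference between the stages was not tested, since each count comes from 1 library. The genes with WT H3K27me3 and none in KO were Elf5, Gata3, Tfap2c, Krt18 and Fgfr2 in mESC, Fgfr2 at week 1 and Elf5, Krt18 and Fgfr2 at week 3, and the gene with KO H3K27me3 and none in WT was Krt8 at week 2. Over all protein-coding genes the shares with H3K27me3 in WT and KO were 34.9% and 7.57% in mESC, 20.5% and 21.1% at week 1, 29.8% and 24.1% at week 2 and 33.2% and 19.5% at week 3. Of the genes with it in WT mESC, 5 of 7 had none in KO, against 84.5% of all such genes. The lists held 722 domains in KO and 8161 in WT mESC, and 4180 in KO and 4769 in WT at week 2.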

How the results depend on the processing

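Of 191 recomputed counts over the 10 genes, 172 stayed within 1.5 times the reported count and 19 did not. Of 240 counts of lists for single genes, 227 stayed and 13 did not, 4 of them for Gcm1. With only the upper-scoring part of each list (above its median), H3K27me3 was at 1 gene at WT week 2, H3K9me3 at 0 in WT mESC, and bivalent classes at 3 in WT mESC, 0 at KO week 1 and 1 at WT week 2, and the class differed between genotypes at 4 genes in mESC and 3 at week 3 (these 2 added after the data were seen), while summits above the median height left Nanog at 2 genes in WT. Counting any coding start put H3K9me3 at 1 gene in KO mESC (Tead4). The other alternatives were added after the data were seen. With lists of equal number, H3K27me3 was at 1 gene in WT mESC and 4 at WT week 3, H3K9me3 at 0 in WT mESC, bivalent classes at 0 in WT mESC, differing classes at 2 in mESC, Oct4 at 1 gene in WT, Sox2 at 4 in KO and Nanog at 3 in KO. With gene records as they stand, Fgfr2 added 1 gene to H3K9me3 in KO mESC and 1 to the Uhrf1 windows, and had H3K27me3 in 0 of its 3 WT lists. These alternatives keep fewer features or move a start by construction. No paired analysis was possible because each group held 1 library and no test was made.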
